A study of Mus musculus and Acomys cahirinus with 25 samples.

Results

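The Schwann cell and nerve genes examined here were 8 genes, chosen by their symbols: Sox10, Cdh19, Mbp, Pmp22, S100b, Ngfr, Ncam1 and Gap43. All 8 were found among the 24500 gene rows of each of the 25 RNA-seq libraries, and their levels are given as CPM, the reads of a gene scaled by the sum of all gene rows of its library. The study examined how wounded skin regains hair follicles, comparing the center of a laboratory mouse wound with its margin, wild-type mice with mice lacking Twist1 in the epidermis, and successive days of wound healing in the spiny mouse. From the laboratory mouse there were 9 dermis libraries at post-wound day 14 (PWD14), 5 from the wound center of wild-type (WT) animals, 2 from the WT margin and 2 from the center of K14-Cre-Twist1 (KO) wounds. From wild-type spiny mice, Acomys cahirinus, there were 6 dermis libraries of the dorsal skin or whole wound, 2 at PWD0 (unwounded), 1 on PWD14, 2 on PWD21 and 1 on PWD28. The other 10 libraries were of wild-type epidermis. Of these, 4 came from laboratory mice at PWD14, 2 from the wound center and 2 from the margin. The other 6 came from spiny mice, 1 at PWD0, 2 on PWD14, 2 on PWD21 and 1 on PWD28. Spiny mouse days are those of the labels, and the study's supplement gives slightly different days for the wound libraries. The study used laboratory mice of 4 weeks of age, mainly of the C57BL/6J strain, and spiny mice of 2 months. The strain of the Twist1 mice and their controls is not given in the sources used here. K14-Cre is active in keratin 14-expressing cells of the epidermis, so the level of Twist1 in KO dermis does not check the label. Twist1 was at 57.7, 36.3 and 105 CPM in WT center replicates 3 to 5 and at 73.4 and 44.0 CPM in the KO libraries. The controls of the KO mice were wild-type Twist1 +/+ mice.

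Schwann cells are the glia of peripheral nerves. In skin they wrap the axons of sensory and autonomic fibers that run through the dermis and reach the epidermis and the hair follicles. Myelinating Schwann cells build a sheath from proteins such as Mbp and Pmp22. After a nerve is cut, Schwann cells lower their myelin genes and take on a repair state marked by Ngfr, Ncam1 and Gap43, while Sox10 is kept throughout the lineage.

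Sox10, the transcription factor that specifies Schwann cells and other neural crest derivatives, lies on chromosome 15 (79154913 to 79164490, minus strand, mouse build GRCm38). Cdh19, a cadherin of the Schwann cell lineage, lies on chromosome 1 (110888002 to 110977601, minus strand). Mbp, myelin basic protein, lies on chromosome 18 (82475091 to 82585637, plus strand). Pmp22, peripheral myelin protein, lies on chromosome 11 (63128982 to 63159547, plus strand). S100b, a calcium-binding protein of glia that is also made by adipocytes, lies on chromosome 10 (76253836 to 76261319, plus strand). Ngfr, the p75 neurotrophin receptor, lies on chromosome 11 (95568818 to 95587698, minus strand). Ncam1, a cell adhesion molecule of neurons, non-myelinating Schwann cells, muscle and some mesenchymal cells, lies on chromosome 9 (49502129 to 49799393, minus strand). Gap43, a growth cone protein of regenerating axons that Schwann cells also make after injury, lies on chromosome 16 (42248552 to 42340651, minus strand). Of the 8, only Ncam1 shared exon bases with another annotated gene, and that gene, Gm11149, had 0 counts in every library.

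Laboratory mouse dermis libraries held between 19413261 and 28615931 reads on genes, and spiny mouse dermis libraries between 5669760 and 34751956. A floor of 3 counts therefore corresponded to between 0.105 and 0.155 CPM in the first and between 0.0863 and 0.529 CPM in the second, and covers counting error only. KO replicate 2 stood apart from the other laboratory mouse dermis libraries. Of the 9762 genes whose median was at least 10 CPM over the other 8, it had 442 (4.53%) at exactly 0, against 0 to 27 genes in the others. Its 8 keratinocyte markers summed to 33060 CPM, against 947 CPM in KO replicate 1. WT center replicates 3 to 5, the controls of the KO libraries, also had lower keratinocyte sums (12.1 to 56.0 CPM) than replicates 1 and 2 (402 to 590 CPM), and the center and margin comparison used only the latter. Samples of a group are separate libraries by their labels, and p-values measure the spread between them. Spiny mouse reads were aligned to the laboratory mouse genome, so levels were not compared between species.

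The glial genes Sox10 and Cdh19 separated dermis from epidermis, and Mbp did not. Cdh19 had 0 counts in all 4 laboratory mouse epidermis libraries, which allows up to 0.0850 CPM in the shallowest, and was between 1.41 and 55.7 CPM in the 9 dermis libraries. Sox10 had 6 counts in WT center epidermis replicate 1 and 0 in the other 3 laboratory mouse epidermis libraries, and was between 9.68 and 42.8 CPM in dermis. S100b had 11 counts in the same epidermis library and 0 in the other 3. Mbp was at between 17.7 and 32.6 CPM in laboratory mouse epidermis, a range that overlapped that of WT center dermis (17.3 to 49.4 CPM). The Mbp gene also gives rise to Golli transcripts outside glia, and gene counts do not separate these from myelin basic protein transcripts.

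Per kilobase of merged exons, the members kept Pmp22 at the top in every dermis group. In wound margin dermis the mean level of Pmp22 was 180 CPM per kb, followed by Gap43 at 32.1, Ncam1 at 17.1, Mbp at 14.7, Sox10 at 13.3, Cdh19 at 11.3, Ngfr at 6.55 and S100b at 3.79 CPM per kb. In the 5 WT center libraries the order below Pmp22 (108 CPM per kb) was Ncam1 at 25.1, Gap43 at 21.7, Sox10 at 5.73, S100b at 4.37, Ngfr at 4.22, Mbp at 3.46 and Cdh19 at 2.35 CPM per kb. Mbp and Cdh19 stood lower in the order at the center than at the margin. Neighbours from Ncam1 to Cdh19 at the margin, and from Sox10 to Cdh19 at the center, were closer to each other than the spread of their libraries.

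The first comparison asked how the dermis of the wound center, where new follicles form, differs from that of the margin. The myelin and lineage members had lower levels in both center libraries than in both margin libraries, while S100b and the members of the repair state overlapped between the regions. None of the 8 (0 of 8) passed a false discovery rate (FDR) of 0.05 in edgeR's quasi-likelihood test of 2 against 2 libraries, in which 125 of 14698 genes (0.850%) passed, most of them lower at the center (0.735%). In 4 members the 2 groups did not overlap and the center was the lower one, as was the case for 30.1% of all genes tested. At an unadjusted p under 0.05, 3 of 8 members were lower and 0 higher, against 10.7% and 5.11% of all genes. In bulk dermis, fewer Schwann cells and less RNA of these genes per cell cannot be told apart.

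Among the lineage genes, Cdh19 was at 14.6 and 14.2 CPM in the center libraries and at 32.5 and 55.7 CPM in the margin libraries. Both margin libraries were above both center libraries, with a log2 fold change of -1.51 ± 0.39 (SE, FDR = 0.128 by edgeR). Sox10 was at 27.1 and 14.1 CPM at the center and at 42.8 and 31.1 CPM at the margin. The groups did not overlap, but the difference of -0.74 ± 0.41 on the log2 scale was under 2 standard errors (FDR = 0.441 by edgeR).

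Of the myelin members, Mbp showed the widest separation, at 49.4 and 26.1 CPM at the center and 145 and 94.7 CPM at the margin. The log2 fold change was -1.56 ± 0.34 (FDR = 0.0752 by edgeR). Pmp22, which fibroblasts and other cells also express, was at 296 and 222 CPM at the center and 413 and 362 CPM at the margin. Its groups did not overlap, and its log2 fold change was -0.49 ± 0.22 (FDR = 0.302 by edgeR). With all 5 WT center libraries Mbp passed (edgeR FDR = 0.0121), in a fit that called 323 genes against 125 in the main fit. The larger fit pooled the center libraries of the main fit with the controls of the KO libraries. DESeq2 and edgeR's likelihood ratio test called 738 and 886 genes. In both, Mbp and Cdh19 passed the threshold (DESeq2 FDR = 0.00411 and 0.0162).

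The remaining members did not separate the regions, and S100b, Ngfr and Gap43 changed sign when single libraries were left out. S100b was at 4.53 and 9.94 CPM at the center and 7.19 and 4.06 CPM at the margin. Ngfr was at 24.8 and 19.7 CPM at the center and 17.8 and 27.4 CPM at the margin. Ncam1 was at 171 and 131 CPM at the center and 144 and 96.5 CPM at the margin. Gap43 was at 29.4 and 64.4 CPM at the center and 41.0 and 50.2 CPM at the margin. The log2 fold changes of these 4 members lay between 0.08 and 0.42, with standard errors between 0.26 and 0.74.

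**Figure D1:**
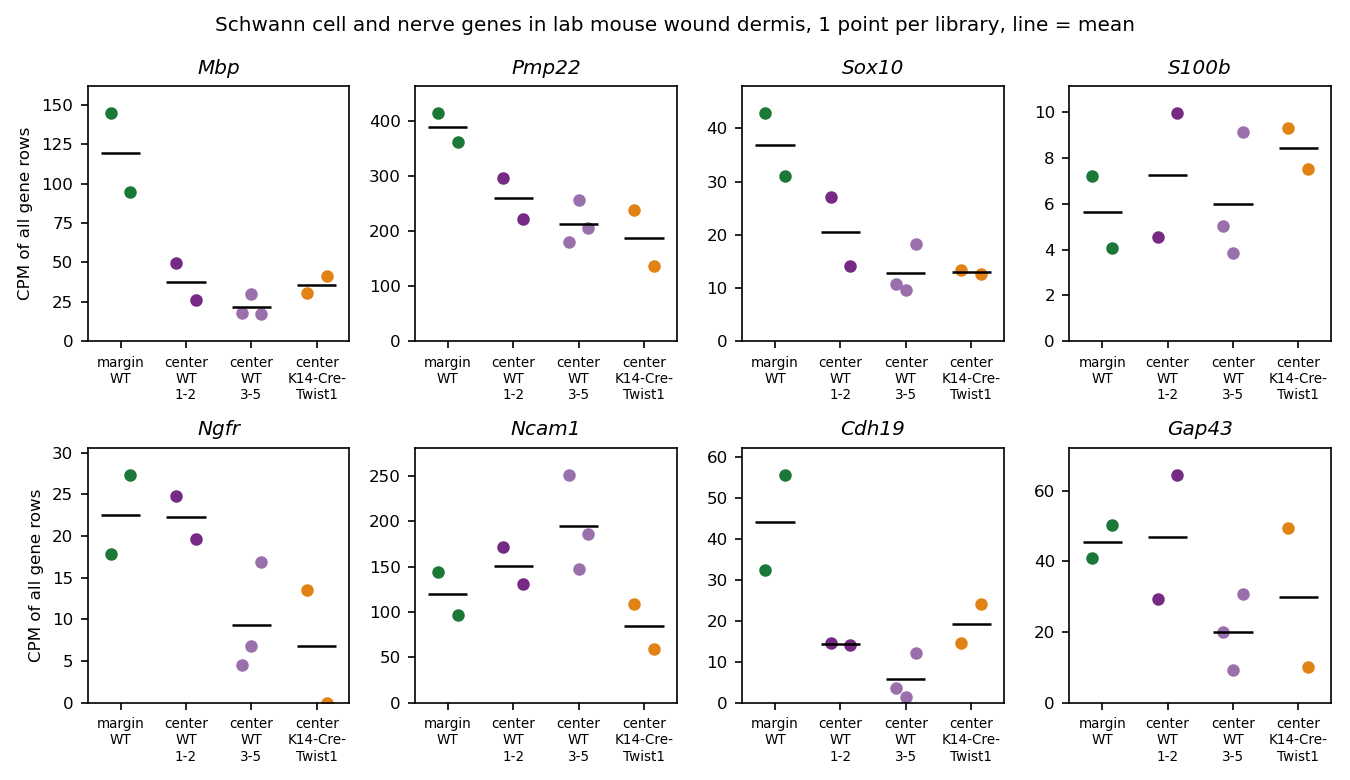
Level of each member (y axis, CPM of all gene rows, linear from 0) in laboratory mouse dermis libraries at PWD14, with 1 point per library and a line at the group mean, for wound margin, WT center replicates 1 and 2, WT center replicates 3 to 5 and K14-Cre-Twist1 center. Mbp, Pmp22, Sox10 and Cdh19 are higher in both margin libraries than in every center library, and Ngfr is at 0 in 1 of the KO libraries.

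The other genes of the Schwann lineage and of myelin were followed with fixed lists. The Schwann list held 14 genes, not all particular to Schwann cells. In laboratory mouse epidermis Erbb3 was at 60.9 to 69.2 CPM and L1cam at 45.6 to 81.5 CPM. Of the 14 genes, 4 were lower at the center with an FDR under 0.05 by edgeR and 0 higher. Over all genes tested, 0.735% were lower at that threshold. The list's median log2 fold change was -0.80 against -0.03 over all genes tested. Kcna1, a potassium channel of myelinated axons, was at 11.6 and 6.49 CPM at the center and 103 and 65.3 CPM at the margin (-3.11 ± 0.41, edgeR FDR = 0.00535). Scn7a, a sodium channel of non-myelinating Schwann cells, fell from 88.8 and 119 CPM to 42.9 and 30.7 CPM (-1.39 ± 0.27, edgeR FDR = 0.0484). In both genes the groups stood apart. Without margin replicate 1 only 1 gene of the list passed, and without margin replicate 2 or without center replicate 2 there were 2, as with all 5 WT center libraries.

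Of the 18 myelin genes, which include Mbp and Pmp22, 17 had lower fitted levels at the center. The FDR threshold was passed by 2 of them, against 0.850% of all genes. The list's median log2 fold change was -1.28, both as fitted and with the 2 genes at 0 in both center libraries set to their bounds. Leaving out single libraries gave between 1 and 6 called genes, all lower, the highest number without center replicate 1, and all 5 WT center libraries gave 5. None of the 13 tested genes of the repair Schwann cell state passed (0 of 13), and their median log2 fold change was 0.08. The most abundant of them beside Ncam1 and Gap43 were Jun, at 120 and 201 CPM at the center and 79.7 and 116 CPM at the margin, and Runx2, at 58.1 and 66.6 CPM against 40.9 and 62.2 CPM. With library size alone as the scaling, the median of that list was -0.01 and that of all genes -0.12. The groups of Jun did not overlap but its change did not pass (0.80 ± 0.26, edgeR FDR = 0.217).

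Neurotrophic factors and their receptors did not pass either, in 0 of 16 tested genes against 0.850% of all genes. Their median was -0.27 on the log2 scale. Sort1, a co-receptor of Ngfr, was at 49.7 and 61.2 CPM at the center and 61.3 and 74.8 CPM at the margin. Erbb2, the partner of Erbb3 in the neuregulin receptor of Schwann cells, was at 31.8 and 24.1 CPM against 28.1 and 22.2 CPM. Erbb3 itself was at 13.4 and 14.9 CPM at the center and 19.6 and 35.7 CPM at the margin (-0.87 ± 0.44, edgeR FDR = 0.391). Gfra2, a receptor for neurturin, varied most within a group, at 8.11 and 39.6 CPM at the center. Only 5 of 13 axonal genes had enough reads to be tested and 0 passed. The highest, Stmn2 and Tubb3, were under 10 CPM in all 4 libraries. The neurons that innervate skin keep their cell bodies, and most of their RNA, in ganglia outside it.

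Markers of other cell types moved with the region too. The summed level of 8 keratinocyte markers was 402 to 590 CPM at the center and 1840 to 3966 CPM at the margin. Of the 8 genes, 4 were lower at an FDR under 0.05, against 0.735% of all genes. The 7 hair follicle genes found summed to 0 to 4.71 CPM at the center and 432 to 500 CPM at the margin, and Krt27 and Krt35 were at 0 in both center libraries. Genes of melanocytes, which also express Sox10, summed to 60.4 to 61.1 CPM at the center and 73.2 to 76.4 CPM at the margin. Tyr, Tyrp1 and Slc45a2 were at 0 in both center libraries. The adipocyte markers summed to 126 to 153 CPM and 205 to 388 CPM, and Adipoq and Cfd were at 0 at the center. The part of these cells in the lower level of the glial genes was not tested.

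The second comparison asked how dermis differs when Twist1 is deleted in the epidermis. None of the 8 members (0 of 8) passed in 2 KO against 3 WT center libraries (replicates 3 to 5), where 8 of 14163 genes passed (0.0565%). At an unadjusted p under 0.05 there was 1 of 8 lower and 0 higher, against 4.54% and 6.98% of all genes. The groups did not overlap in 3 members, with the KO libraries higher in 2 (12.7% of all genes) and lower in 1 (16.7%). With DESeq2 also 0 of 8 members passed.

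Ncam1 was the lower one, at 109 and 59.5 CPM in KO and at 251, 148 and 185 CPM in WT libraries. Its log2 fold change was -1.21 ± 0.36 (FDR = 0.289 by edgeR). The lower of the KO values was that of KO replicate 2, the library with 442 genes at 0. Over the 14 alternatives run, the log2 fold change of Ncam1 lay between -1.76 and -0.81. Against all 5 WT center libraries, whose lowest Ncam1 level was 131 CPM, both KO libraries stayed lower.

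Cdh19 was the higher member with the largest difference, at 14.6 and 24.1 CPM in KO and at 3.67, 1.41 and 12.2 CPM in WT libraries. The log2 fold change was 1.68 ± 0.78 (FDR = 0.446 by edgeR). WT center replicates 1 and 2, which were not part of that comparison, had 14.6 and 14.2 CPM, close to KO replicate 1. Mbp was at 30.4 and 41.2 CPM in KO and at 17.9, 29.7 and 17.3 CPM in WT libraries, a log2 fold change of 0.74 ± 0.40 (FDR = 0.493 by edgeR). Both KO values lay within the 17.3 to 49.4 CPM of the 5 WT center libraries.

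The other 5 members overlapped between genotypes. Sox10 was at 13.4 and 12.6 CPM in KO and at 10.7, 9.68 and 18.2 CPM in WT libraries. Pmp22 was at 238 and 136 CPM against 179, 255 and 206 CPM. S100b was at 9.32 and 7.51 CPM against 5.03, 3.83 and 9.11 CPM. Sox10 and S100b had close KO values inside or near the WT range. Gap43 was at 49.4 and 10.2 CPM against 20.1, 9.17 and 30.7 CPM. Ngfr was at 13.6 CPM in KO replicate 1 and at 0 in KO replicate 2, against 4.51, 6.75 and 16.9 CPM. Gap43 and Ngfr therefore differed more between the 2 KO libraries than between genotypes.

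None of the tested genes of the Schwann list (0 of 14), the myelin list (0 of 15) or the repair list (0 of 10) passed. The neurotrophic list (0 of 14) and the axonal list (0 of 4) had none either, against 0.0565% of all genes. With so low a share, counts of 0 say little about these lists. The median log2 fold change of the Schwann list was 0.72 in the 5 libraries and 0.51 without KO replicate 2, against -0.07 and -0.02 over all genes. The list summed to 223 to 251 CPM in KO and to 77.9 to 187.5 CPM in WT center replicates 3 to 5. In WT center replicates 1 and 2, outside that comparison, it summed to 261 to 278 CPM, above both KO libraries. Erbb3 was at 7.72 CPM in KO replicate 1, near the WT range of 5.43 to 7.66 CPM, and at 67.1 CPM in KO replicate 2. In laboratory mouse epidermis Erbb3 was between 60.9 and 69.2 CPM. Scn7a, Kcna1 and Prx were at 0 in KO replicate 2 and at 20.8, 17.7 and 6.07 CPM in KO replicate 1. The part of epidermal RNA and of lost transcripts in the values of KO replicate 2 was not tested.

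WT center dermis itself was not uniform. Ngfr and Cdh19 were higher in both of replicates 1 and 2 than in all of replicates 3 to 5. Ngfr had 24.8 and 19.7 CPM in the first pair, with 4.51, 6.75 and 16.9 CPM in the others. Cdh19 had 14.6 and 14.2 CPM, with 3.67, 1.41 and 12.2 CPM in the others. The other members overlapped between the 2 sets. The labels do not say how these libraries differ, and no test was made between them. By the division used here, replicates 3 to 5 were the controls of the KO mice. For that role the paper names wild-type Twist1 +/+ mice, which were not its main laboratory mouse strain by name. The sources do not say which animals gave replicates 1 and 2. The part of separate experiments and control animals in the difference between the sets was not tested. The share of all genes that separate the 2 sets was not counted, so the separation is not shown to be particular to Ngfr and Cdh19.

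In the spiny mouse, the dermis of the unwounded skin at PWD0 was compared with that of the whole wound at PWD21. The PWD0 libraries were shallower, with 5669760 and 6804714 gene reads against 21927269 and 34751956 at PWD21, and had more reads of low alignment quality (60.5% and 55.2% against 44.8% and 38.0%). The part of this in the results was not tested. Mbp, Pmp22 and S100b fell and Ncam1 rose. These 4 of 8 members passed an FDR of 0.05 in edgeR's quasi-likelihood test of 2 against 2 libraries, 3 lower and 1 higher. Of all 14481 genes tested, 3792 passed (26.2%), with 14.2% lower and 12.0% higher. Groups did not overlap in 4 members that were lower at PWD21 (29.5% of all genes) and in 1 that was higher (38.2%). Without either PWD21 library S100b was the only member that passed (1 of 8), and Mbp and Ncam1 then had an edgeR FDR between 0.0525 and 0.133.

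Mbp was at 127 and 161 CPM in unwounded dermis. It was at 5.77 CPM on PWD14, at 71.8 and 62.6 CPM on PWD21 and at 43.2 CPM on PWD28. The unwounded libraries were the highest and the single PWD14 library the lowest, and PWD21 was lower than PWD0 by -1.20 ± 0.26 on the log2 scale (FDR = 0.0130 by edgeR). Pmp22 was at 698 and 481 CPM at PWD0, 100.2 CPM on PWD14, 318 and 264 CPM on PWD21 and 316 CPM on PWD28. It followed the same order of days up to PWD21, with a log2 fold change of -1.16 ± 0.35 (FDR = 0.0428 by edgeR). Pmp22 did not pass without any single one of 3 libraries (PWD0 replicate 1 and either PWD21 replicate), and its FDR was then 0.154 to 0.284.

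S100b changed most, from 17.5 and 11.5 CPM at PWD0 to 2.6 and 2.13 CPM at PWD21 (-2.75 ± 0.46, FDR = 0.00443 by edgeR). It was at 1.06 CPM at PWD14 and 0.488 CPM at PWD28, so that it stayed low at the last day, and it passed in all 12 alternatives run. The 8 adipocyte markers fell over the same interval, all 8 with an FDR under 0.05, against 14.2% of all genes. Their sum went from 1194 to 1211 CPM to 154 to 297 CPM. Adipoq, the adipocyte hormone adiponectin, went from 20.3 and 21.0 CPM to 0.319 and 0.403 CPM. Since adipocytes also make S100b, it is no marker of glia alone here, and the part of fat in its fall was not tested.

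Ncam1 was at 42.2 and 55.1 CPM at PWD0, 106 CPM on PWD14, 138 and 109 CPM on PWD21 and 69.6 CPM on PWD28. All wound libraries were above both unwounded ones, and the rise to PWD21 was 1.25 ± 0.27 on the log2 scale (FDR = 0.0127 by edgeR). Skeletal muscle, which also expresses Ncam1, went the other way. Of its 9 tested marker genes 8 were lower at an FDR under 0.05, against 14.2% of all genes. The sum of the muscle markers changed from 847 to 2092 CPM to 332 to 441 CPM. Over the same interval 4 of 8 dermal papilla, 3 of 8 fibroblast and 4 of 8 endothelial markers rose, against 12.0% of all genes. Their sums went from 32.8 to 105 CPM to 220 to 235 CPM (dermal papilla), from 68750 to 101700 CPM to 130600 to 158700 CPM (fibroblast) and from 144 to 281 CPM to 516 to 707 CPM (endothelial). The part of these cells in the change of Ncam1 was not tested.

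Cdh19 was at 14.1 and 30.3 CPM at PWD0, 1.59 CPM on PWD14, 11.3 and 9.96 CPM on PWD21 and 4.29 CPM on PWD28. Its groups did not overlap, and its log2 fold change of -1.13 ± 0.38 narrowly missed the threshold (FDR = 0.0599 by edgeR, 0.0425 by DESeq2). Sox10 was at 5.82 and 11.6 CPM at PWD0, 5.77 CPM on PWD14, 11.2 and 16.0 CPM on PWD21 and 8.49 CPM on PWD28. Its groups overlapped, with a log2 fold change of 0.57 ± 0.42 (FDR = 0.339 by edgeR). The PWD14 value was close to that of PWD0 replicate 1.

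Ngfr was at 2.29 and 4.85 CPM at PWD0, 0.0589 CPM (1 count) on PWD14, 1.78 and 4.49 CPM on PWD21 and 1.76 CPM on PWD28. It was below its floor of 3 counts in the PWD14 library, and the difference between PWD0 and PWD21 did not pass (-0.25 ± 0.62, FDR = 0.795 by edgeR). Gap43 was at 20.1 and 3.53 CPM at PWD0, 25.7 CPM on PWD14, 25.8 and 18.9 CPM on PWD21 and 24.0 CPM on PWD28. The 2 unwounded libraries disagreed, and they decided the call. Without PWD0 replicate 1 the log2 fold change was 2.70 (FDR = 1.09e-05 by edgeR), without PWD0 replicate 2 it was -0.08 (FDR = 0.901), and with both it was 0.73 ± 0.69 (FDR = 0.464).

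**Figure D2:**
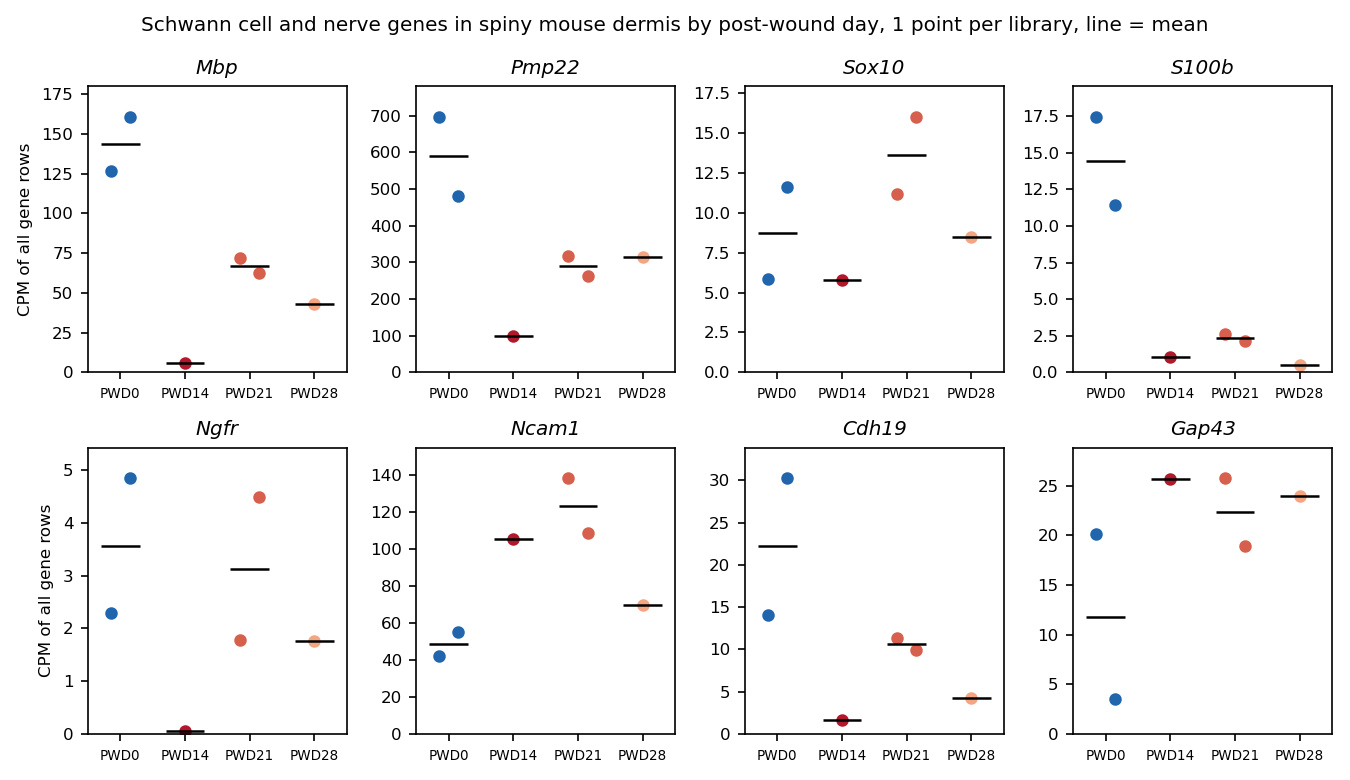
Level of each member (y axis, CPM of all gene rows, linear from 0) in spiny mouse dermis libraries by post-wound day (x axis), with 1 point per library and a line at the mean of the day. Mbp, Pmp22, S100b, Ngfr and Cdh19 are well below both PWD0 libraries in the single PWD14 library, where Sox10 is level with the lower one, while Ncam1 and Gap43 are higher in it.

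At PWD14, where there was 1 library and no test, the members differed in direction. Mbp, Pmp22, Cdh19, S100b and Ngfr were below both PWD0 libraries, Sox10 was just below the lower of them, and Ncam1 and Gap43 were above them. The 14 genes of the Schwann list summed to 464 to 607 CPM at PWD0, 45.3 CPM on PWD14, 282 to 337 CPM on PWD21 and 216 CPM on PWD28. The 18 myelin genes summed to 1549 to 1864 CPM, 140.2 CPM, 697 to 763 CPM and 630.0 CPM on the same days. Pmp22 and Fa2h, which are also expressed outside Schwann cells, held a large part of these sums. Pmp22 was at 698 and 481 CPM at PWD0 and at 100.2 CPM on PWD14. Fa2h was at 384 and 753 CPM at PWD0, 0.353 CPM on PWD14, 55.5 and 148 CPM on PWD21 and 28.7 CPM on PWD28. In both lists the PWD14 library was the lowest and the later days lay between it and the unwounded skin.

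Of the Schwann list, 4 of 14 tested genes were lower at PWD21 with an FDR under 0.05 and 0 higher, against 14.2% and 12.0% of all genes. The list's median log2 fold change was -0.89 against 0.03 over all genes. Gfra3, the artemin receptor, fell from 61.0 and 78.9 CPM to 29.5 and 36.0 CPM (-1.19 ± 0.28, edgeR FDR = 0.0176). Kcna1 fell from 2.47 and 1.47 CPM to 0.0456 CPM (1 count) and 0.374 CPM (edgeR FDR = 0.0424). S100b was called as well. Leaving out PWD21 replicate 1 or 2 left 2 genes of the list past the threshold.

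Of the myelin list, 6 of 17 tested genes were lower at an FDR under 0.05 and 0 higher, against 14.2% and 12.0% of all genes. By fitted direction alone, 13 of the 17 were lower at PWD21 and 4 were higher. The list's median was -0.998 on the log2 scale. Besides Mbp and Pmp22 the called genes were Fa2h, Prx, Cadm4 and Gldn. Prx, periaxin of the Schwann cell membrane, fell from 45.2 and 46.6 CPM to 8.89 and 18.7 CPM (-1.83 ± 0.40, edgeR FDR = 0.0133). Fa2h, an enzyme of 2-hydroxylated lipids that is active in myelin and also in the epidermis and sebaceous gland, fell from 384 and 753 CPM to 55.5 and 148 CPM (-2.54 ± 0.50, edgeR FDR = 0.00876). Of the keratinocyte markers 7 of 8 were lower as well, and their sum was 4967 to 6408 CPM at PWD0 and 604 to 1144 CPM at PWD21, whose part in the fall of Fa2h was not tested. Without PWD21 replicate 1 there were 0 myelin genes past the threshold and without replicate 2 there were 3.

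Of the repair list, 3 of 14 tested genes were higher and 4 lower at an FDR under 0.05, against 12.0% and 14.2% of all genes. Beside Ncam1, Cdh2 (N-cadherin) rose from 1.76 and 6.47 CPM to 12.1 and 20.6 CPM and Runx2, a transcription factor that also marks bone and mesenchymal cells, rose from 8.82 and 10.7 CPM to 21.3 and 25.5 CPM. Jun, the transcription factor that drives the repair state and a general stress-response gene, fell from 1281 and 3566 CPM to 408 and 791 CPM (-2.06 ± 0.55, edgeR FDR = 0.0272). Lif and Bdnf, both secreted factors of injured nerve, fell by 1.86 and 1.77 on the log2 scale. Olig1 was at 1.41 and 1.18 CPM at PWD0 and at 0 and 0.0288 CPM (1 count) at PWD21. Leaving out either PWD21 library left 0 genes of the list past the threshold, and leaving out PWD0 replicate 2 gave 6 higher and 2 lower.

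Among axonal genes, 3 of 11 tested were higher and 2 lower, against 12.0% and 14.2% of all genes. Without either PWD21 library there were 2 higher and 1 lower, and without PWD0 replicate 1 there were 2 higher and 5 lower. Nefl, the light neurofilament chain, was at 0 in both PWD0 libraries, 98.0 CPM on PWD14, 19.4 and 9.58 CPM on PWD21 and 0 on PWD28. Its mean at PWD21 was at least 27.4-fold higher than the floor of 3 counts in the shallower PWD0 library (edgeR FDR = 0.000957). Nefm, the medium chain, was at 0 and 0.147 CPM (1 count) at PWD0, 29.8 CPM at PWD14, and 1.14 and 1.27 CPM at PWD21. Uchl1, a ubiquitin hydrolase abundant in neurons, rose from 1.41 and 1.32 CPM to 23.4 and 13.1 CPM after 37.3 CPM at PWD14. Stmn2, a growth cone protein, fell from 23.8 and 16.3 CPM to 1.87 and 3.63 CPM and Nefh from 1.41 and 1.76 CPM to 0 and 0.173 CPM.

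Among neurotrophic factors and receptors, 7 of 18 genes fell and 1 rose at an FDR under 0.05, against 14.2% and 12.0% of all genes. Ntrk3, the receptor for neurotrophin 3, fell from 31.2 and 53.5 CPM to 5.61 and 5.01 CPM (-3.08 ± 0.35, edgeR FDR = 0.000797). Ntrk2, the receptor for Bdnf, fell by 1.83 on the log2 scale. Nrtn (neurturin) fell from 24.3 and 22.5 CPM to 5.02 and 4.69 CPM. Gfra1, the receptor for Gdnf, rose from 21.7 and 42.0 CPM to 108 and 71.8 CPM (1.42 ± 0.34, edgeR FDR = 0.0184), with 141 CPM at PWD14. Without PWD21 replicate 1 there were 3 lower and 0 higher genes of this list, and without replicate 2 there were 4 lower and 1 higher.

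**Figure D3:**
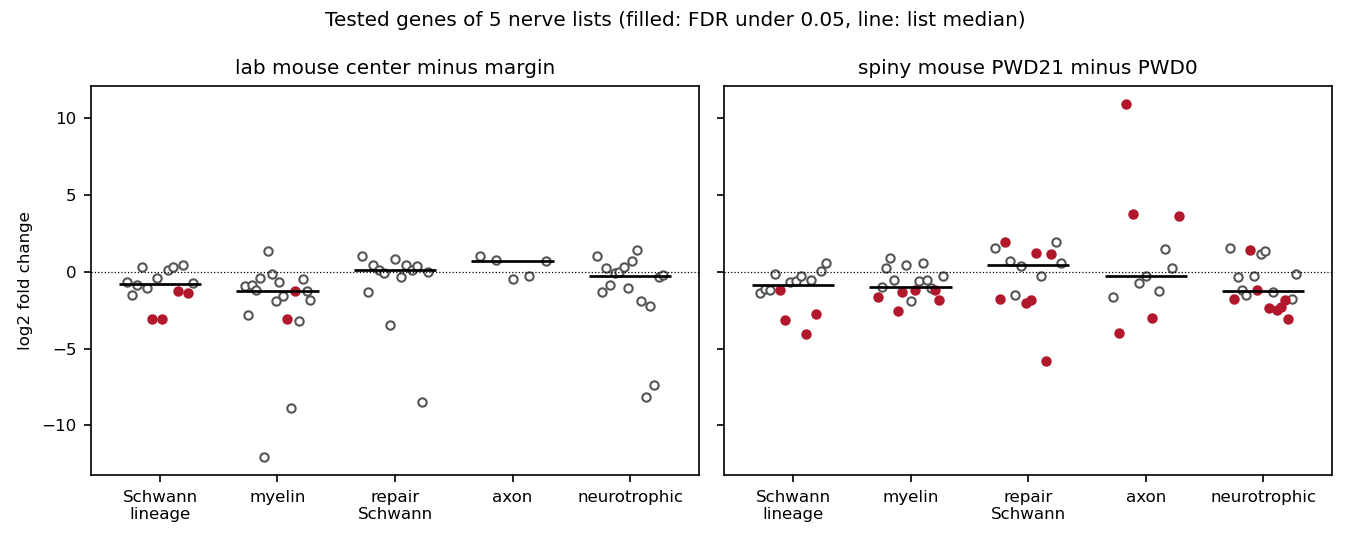
Log2 fold changes (y axis) of the tested genes of 5 nerve lists (x axis), with 1 point per gene, filled where the FDR was under 0.05, and a line at the list median, for wound center minus margin of laboratory mouse dermis (left) and PWD21 minus PWD0 of spiny mouse dermis (right). Points beyond 5 on either side are genes at or near 0 in 1 of the groups, whose fitted size depends on the prior count, and the myelin medians are -1.28 and -0.998.

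**Figure D4:**
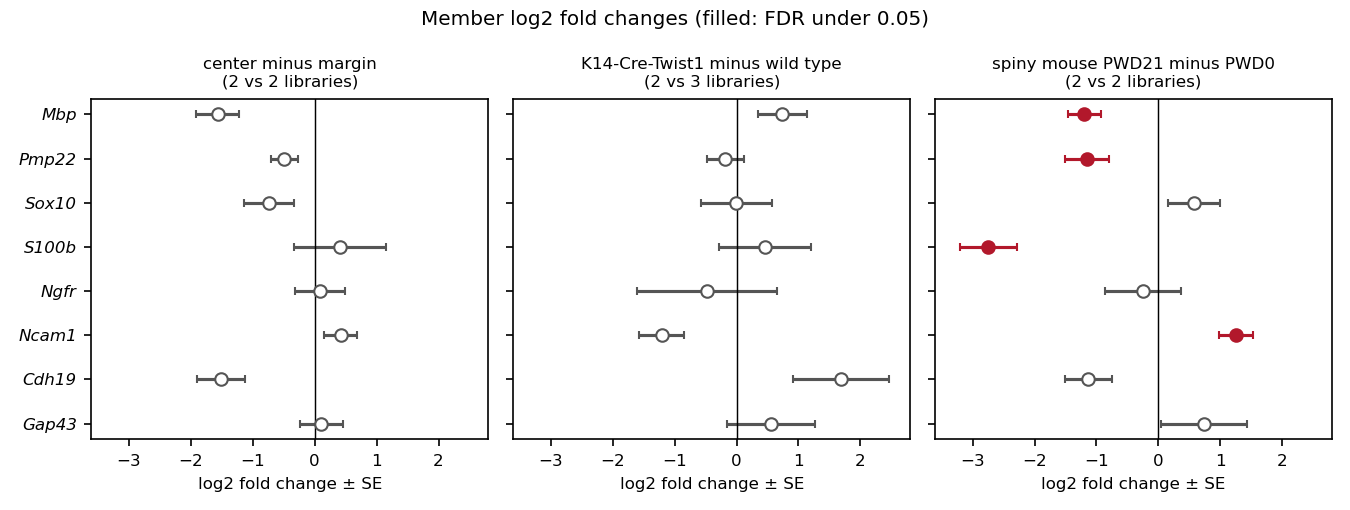
Log2 fold change with its standard error (x axis) of each member (y axis) in the 3 dermis comparisons, filled where the FDR was under 0.05. Only Mbp, Pmp22, S100b and Ncam1 in the spiny mouse comparison are filled.

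Ratios within a library do not depend on its total, and were formed after the levels had been seen. Per read of Sox10, there were 3.38 and 3.05 reads of Mbp in the margin libraries, 1.83 and 1.85 in WT center replicates 1 and 2, and between 0.952 and 3.07 in WT center replicates 3 to 5. The margin and the WT center overlapped in this ratio, through WT center replicate 4 (3.07) alone. Replicates 1 and 2, those compared with the margin elsewhere, were below both margin libraries. Ncam1 gave 3.37 and 3.11 reads per Sox10 read at the margin and between 6.33 and 23.6 at the WT center, with no overlap.

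In spiny mouse dermis, Mbp gave 21.8 and 13.8 reads per Sox10 read in unwounded dermis, then 1.0 (PWD14), 6.43 and 3.91 (PWD21) and 5.09 (PWD28). The ratio was lower in every wound library than in unwounded dermis. Ncam1 gave 7.24 and 4.75 reads per Sox10 read at PWD0, 18.3 at PWD14 and 12.4 and 6.80 at PWD21, and PWD0 and PWD21 overlapped. These ratios show that the genes changed unequally, and were given no test. Melanocyte markers, whose cells also express Sox10, summed to 103 to 130.5 CPM at PWD0 and 17.8 CPM on PWD14. They summed to 48.3 to 60.3 CPM on PWD21 and 97.05 CPM on PWD28. The part of melanocytes in the ratios was not tested.

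**Figure D5:**
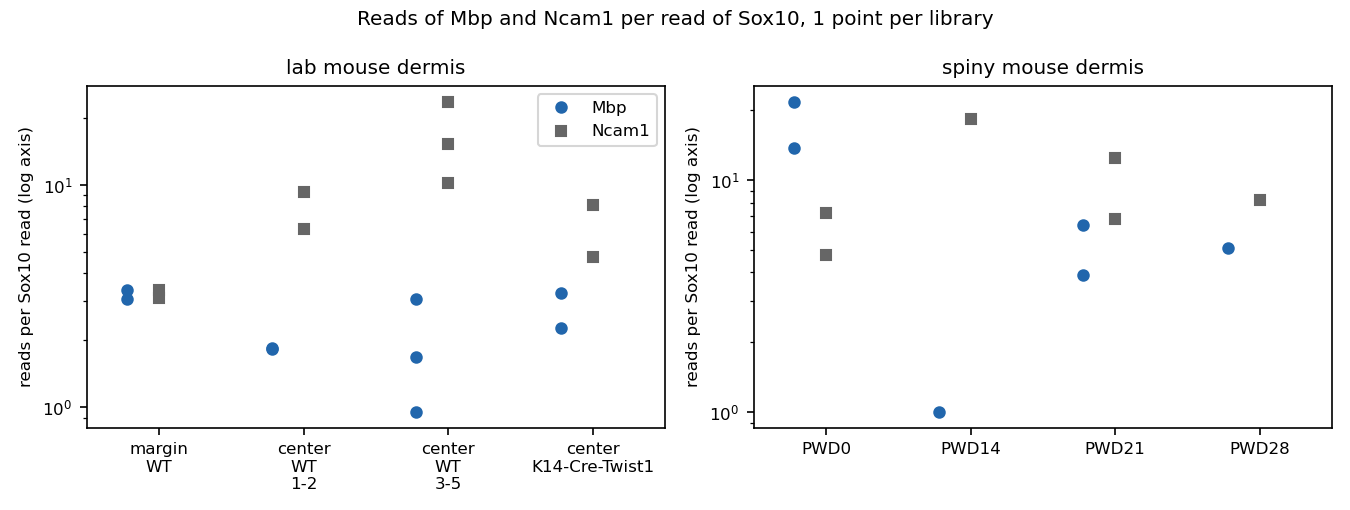
Reads of Mbp and Ncam1 per read of Sox10 (y axis, log scale) in each dermis library, with 1 point per library, for laboratory mouse groups at PWD14 (left) and spiny mouse post-wound days (right). Ncam1 per Sox10 is lower in both margin libraries than in every center library, and Mbp per Sox10 is lowest at PWD14 in the spiny mouse.

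The contrast of center and margin differed between dermis and epidermis for the myelin members. In a fit of 8 laboratory mouse libraries, 2 of 8 members had an FDR under 0.05 for the difference of the contrasts, both lower in dermis than in epidermis, where 3.48% of 15531 genes passed and 3.34% did so in that direction. The median of all genes was -0.31 on this scale. Pmp22 was at 6.04 and 7.11 CPM in center epidermis and 2.41 and 1.85 CPM in margin epidermis, opposite to its order in dermis, and the difference of the contrasts was -2.20 ± 0.41 (edgeR FDR = 0.0147). Mbp was at 23.3 and 32.6 CPM in center epidermis and 17.7 and 18.7 CPM in margin epidermis, and the difference was -2.23 ± 0.52 (edgeR FDR = 0.0431). Markers of dermal cells had the same order in epidermis. Fibroblast markers summed to 4660 to 5632 CPM in center epidermis and 742 to 2288 CPM in margin epidermis, and endothelial markers to 25.5 to 36.3 CPM and 1.68 to 6.69 CPM. For the difference of the contrasts, 4 of 8 endothelial and 1 of 8 fibroblast genes had an FDR under 0.05 by edgeR, all lower in dermis, and the part of these cells in the result was not tested. Without any single library of the 8, Mbp no longer passed (FDR = 0.0512 to 0.274 by edgeR), and Pmp22 did not pass in 5 of these 8 fits (0.0626 to 0.101). Epidermis was sequenced as paired ends and dermis as single ends. This comparison shares its dermis libraries with that of center and margin. For Sox10, S100b and Cdh19 no fold is given, since epidermis was at or near 0.

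Genes whose levels followed that of Sox10 most closely were ranked by Pearson's r of log2(CPM + 1), as a description over libraries that share depth, processing and groups. Over the 9 laboratory mouse dermis libraries and the 13994 genes averaging 1 CPM or more, the first 5 were Rpl15 (r = 0.966), Rps13 (0.962), Tra2a (0.958), Acap2 (0.955) and Cstf2t (0.947). Among the members Mbp ranked at 251 (0.824), Pmp22 at 469 (0.790), Cdh19 at 770 (0.743), Ngfr at 2153 (0.578), Gap43 at 2704 (0.521), Ncam1 at 8750 (-0.024) and S100b at 9351 (-0.085).

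Over the 6 spiny mouse dermis libraries and 13855 genes, the first 5 were Hoxa6 (r = 0.994), Pou6f1 (0.987), Spry4 (0.978), Camkk2 (0.977) and Tmem194 (0.973). The nearest member was Ngfr at rank 1714 (0.733) and the farthest was Gap43 at 11166 (-0.334). Cdh19 ranked at 4810 (0.478), Mbp at 5311 (0.428), Ncam1 at 5644 (0.392), Pmp22 at 8032 (0.124) and S100b at 9722 (-0.096).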

How the data were processed

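For each of the 25 libraries the files the authors deposited hold unnormalized read counts, one row a gene symbol, with 24500 genes and 5 summary lines of htseq-count that were left out of totals. Per the labels and the paper's methods, reads were aligned to mm10 with STAR, whose version the sources give differently, and counted with htseq-count (HTSeq 0.6.0) on RefSeq genes. Laboratory mouse libraries were strand-specific and spiny mouse libraries were not, and reads set aside for low alignment quality were 23.7% to 34.4% of laboratory and 38.0% to 60.5% of spiny mouse dermis reads. The laboratory mouse wound center was taken with a punch and the rest of the wound called margin. Spiny mouse skin was kept in cold trypsin before separation.

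Comparisons used edgeR 4.0.16 in R 4.3.3 (TMM, filterByExpr, prior count 0.125, quasi-likelihood test, Benjamini-Hochberg adjustment over all genes tested). Standard errors were obtained by dividing the absolute log2 fold change by the root of the F statistic. WT center replicates 1 and 2 were compared with the margin and replicates 3 to 5 with KO, the division that the library names in the study's supplement give. Alternatives were DESeq2 1.42.0, other edgeR tests, normalizations, filters and sets of libraries. All 8 members were named. From each list, the called genes (up to 6 with the largest change) or the most abundant were named, and Kcna1, Scn7a and Prx in KO replicate 2 and marker genes at 0 were named after their values were seen. The members and lists were chosen with earlier results of these data known. CPM per kb used merged exons of GENCODE M21 (GRCm38). Positions are from RefSeq (GRCm38.p6). Some genes of the lists are not reported here by name. No protein or promoter sequence was used. Plots used Python 3.11.15 and matplotlib 3.10.9.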

Additional observations from a re-analysis of the deposited data

Results flagged for a closer look

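The center and margin contrast of Mbp differed between dermis and epidermis, by a test of the difference itself. The difference of the log2 fold changes, dermis minus epidermis, was -2.23 for Mbp (edgeR FDR = 0.0431). It kept its sign in all 15 alternatives but passed the threshold in 4 of them.

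The same test set Pmp22 apart, with a difference of -2.20 (edgeR FDR = 0.0147), past the threshold in 10 of 15 alternatives and of the same sign in all. In both genes the center was lower than the margin in dermis and higher than it in epidermis. Among the 5 WT center dermis libraries, no member had a library whose distance from the others exceeded Dixon's 95% critical value.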

How the results depend on the processing

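Of 428 refitted member fold changes, 364 kept their direction and side of the threshold, 25 lost and 13 gained a call and 26 changed sign, all 26 in members that had not passed, and of 104 levels rescaled by effective library size 23 moved by more than the spread between replicates. For center against margin (125 genes, 0 members called) DESeq2 called 738 genes and 2 members, the likelihood ratio test 886 and 2, the edgeR 3 estimate 54 genes, a minimum of 10 counts 1 member, all 5 WT center libraries 323 genes and 1 member, and all 9 dermis libraries in 1 fit 5 genes. Leaving out single libraries gave 19 to 241 genes and 0 to 1 members. Ngfr was at -0.012 with library size only and at -0.47 with all 5 WT libraries, where Gap43 was at -0.41. Without single libraries S100b ranged from -0.19 to 0.93, Ngfr from -0.16 to 0.38 and Gap43 from -0.50 to 0.56. For KO against WT (8 genes, 0 members) DESeq2 called 520 genes, the likelihood ratio test 214, the edgeR 3 estimate 2, a minimum of 10 counts 0 (edgeR), all 5 WT libraries 190 and all 9 libraries 75. Leaving out single libraries gave 1 to 3353 genes, the highest without KO replicate 1 and 27 without KO replicate 2, and 0 to 1 members. Sox10, near 0 throughout, was at 0.029 with DESeq2, 0.006 with the likelihood ratio test and with the edgeR 3 estimate, 0.019 with RLE and 0.004 with library size only. Without single libraries Sox10 ranged from -0.17 to 0.35, Pmp22 from -0.69 to 0.20, Gap43 from -1.05 to 1.3 and Ngfr from -10.8 to 0.55, the lowest resting on the KO library at 0. For PWD21 against PWD0 (3792 genes, 4 members) single libraries left out gave 1311 to 5118 genes, the lowest 2 without PWD21 replicates 2 and 1 (1360), and 1 to 5 members. Ngfr then ranged from -1.10 to 0.30 and Gap43 from -0.081 to 2.70. For the difference between dermis and epidermis (540 genes, 2 members) DESeq2 called 1194 genes, the likelihood ratio test 1485 and a minimum of 10 counts 204, and the edgeR 3 estimate, RLE and that minimum 1 member each. Leaving out single libraries gave 167 to 1343 genes and 0 to 1 members, with fitted values of S100b from -5.63 to 0.41 and Ncam1 from -0.56 to 0.29, and Ncam1 at 0.024 with DESeq2. The cause was not tested. A fit that leaves 1 library in a group assumes that it varies like the others. Counts of list genes without single libraries were added after seeing the data. No paired analysis was possible because the labels carry no replicate numbers (those used here follow the order of deposit) and do not say which center and margin samples share a wound. Counts near the floor limit Ngfr in the PWD14 library and most axonal genes in laboratory mouse dermis.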

Other observations

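In spiny mouse epidermis, Mbp was between 7.83 and 36.6 CPM, and Pmp22 was at 25.2 CPM at PWD0 and between 0.775 and 5.95 CPM in the wound libraries. Sox10 was between 0 and 1.04 CPM up to PWD21 and at 4.21 CPM (41 counts) on PWD28. The melanocyte markers summed to 108.7 CPM in that PWD28 library and to between 14.1 and 48.6 CPM in the other spiny mouse epidermis libraries. The part of melanocytes in the level of Sox10 was not tested. Cdh19 had 3 counts in PWD21 replicate 1 and 0 in the other 5 epidermis libraries, and S100b had at most 5 counts in any of them. Gap43, the growth cone protein, was at 1.32 CPM at PWD0, at 40.3 and 13.8 CPM (520 and 216 counts) in the 2 PWD14 libraries, at 3.46 and 0.856 CPM on PWD21 and at 0 on PWD28. Both PWD14 libraries were above every other epidermis library of the spiny mouse.

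Of the axonal list, the genes below were named after their values were seen, and the list had no common order of days. Stmn2, a growth cone protein, was at 9.16 CPM at PWD0, 361 and 553 CPM on PWD14, 244 and 293 CPM on PWD21 and 23.7 CPM on PWD28. Tubb3, a tubulin of neurons, was at 146 CPM at PWD0, 308 and 349 CPM on PWD14 and 157 CPM on PWD28. Calca, the sensory neuropeptide CGRP, was instead highest on PWD21, at 33.1 and 31.3 CPM against 10.2 and 10.6 CPM on PWD14. Snap25, a protein of synaptic vesicle release, was highest on PWD28, at 6.67 CPM against 0.155 and 1.21 CPM on PWD14. Nefl and Uchl1, which were above 9 CPM in the PWD14 and PWD21 dermis libraries, had at most 5 and 3 counts in any spiny mouse epidermis library. With 1 library each at PWD0 and PWD28, these levels were not tested.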
